A study of Mus musculus with 96 samples.

Results

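DNA replication genes were followed across single mouse embryonic stem (ES) cells. The set held 41 of the 23284 genes in the count table, chosen by name for their place in replication: the licensing and helicase genes, the polymerases and primase, the sliding clamp and its loader, single-strand binding, Okazaki fragment joining, nucleotide supply and chromatin assembly. The set and the other gene lists were chosen with earlier results of these data known. Setting them against other genes is therefore a description. All 41 genes of the set had a row in the table, and all 41 passed the filter on low counts (10 or more reads per cell on average). Messenger RNA was measured in 48 J1 ES cells between passages 12 and 20, kept without feeder cells in medium with serum and leukaemia inhibitory factor. All cells belong to a single group, serum ES cells, so no condition was compared. No cell is named as coming from a separate culture, and the 48 cells count as 1 sample of their culture.

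Before a cell divides, origins of replication are licensed when the origin recognition complex, Cdc6 and Cdt1 load the ring of Mcm2 to Mcm7 onto DNA. At the start of S phase the ring is turned into the active helicase by Cdc45 and GINS, and the polymerases, the clamp Pcna and its loader follow. In most cell types the genes of this machinery are switched on together before S phase by E2F transcription factors. Mouse ES cells divide fast with a short G1 phase, and are known for expressing this machinery at a high level through much of the cycle.

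Lanes were summed per cell, which gave from 4408953 to 9767245 reads in genes per cell. Cells were divided at a Gata6 level of 20 CPM (the depth-scaled unit of read counts). Gata6 encodes a transcription factor of primitive endoderm, the extraembryonic layer beside the early epiblast. The 13 Gata6-high cells had from 63.7 to 808 CPM of Gata6, and the 35 Gata6-low cells had from 0 to 1.11 CPM, so no cell lay near the limit. Summed over 11 endoderm markers, Gata6 among them, levels were 4701 to 29129 CPM in Gata6-high cells and 30.0 to 474 CPM in Gata6-low cells. Summed over 12 naive pluripotency markers, they were 214 to 1783 CPM in Gata6-high cells and 477 to 5949 CPM in Gata6-low cells. Feeder fibroblast markers summed to at most 7.15 CPM in Gata6-high cells and at most 35.9 CPM in Gata6-low cells, with Col3a1, Dcn and Lum at 0 reads throughout.

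Promoter sequences are given for 4 genes named in the results below. Cdc6 and Rrm2 were among the genes called for their spread between cells. Rpa1, the gene called in both fits described below, is not shown. Pcna and Mcm3, with Rrm2, had the 3 highest mean correlations with the rest of the set. Each sequence is the stretch of 250 bases before the RefSeq start site, on build GRCm38.p6 and in the direction of the gene. The count table was made on mm9, so these coordinates belong to the RefSeq table and not to the counts. Capitals mark letters of the E2F site and the CCAAT box, on either strand. The Cdc6 stretch lies at chr11:98907901-98908150 on the plus strand, Rrm2 at chr12:24708004-24708253 on the plus strand, Pcna at chr2:132253181-132253430 on the minus strand and Mcm3 at chr1:20820313-20820562 on the minus strand.
Cdc6: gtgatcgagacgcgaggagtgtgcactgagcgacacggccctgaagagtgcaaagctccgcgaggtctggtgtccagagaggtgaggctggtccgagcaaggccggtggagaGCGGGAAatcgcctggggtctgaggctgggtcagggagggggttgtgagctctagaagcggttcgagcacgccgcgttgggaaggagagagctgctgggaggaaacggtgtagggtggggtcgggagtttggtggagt
Rrm2: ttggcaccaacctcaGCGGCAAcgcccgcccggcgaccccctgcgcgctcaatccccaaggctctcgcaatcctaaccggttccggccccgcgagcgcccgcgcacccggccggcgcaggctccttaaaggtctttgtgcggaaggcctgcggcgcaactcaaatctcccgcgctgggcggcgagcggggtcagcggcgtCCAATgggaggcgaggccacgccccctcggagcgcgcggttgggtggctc
Pcna: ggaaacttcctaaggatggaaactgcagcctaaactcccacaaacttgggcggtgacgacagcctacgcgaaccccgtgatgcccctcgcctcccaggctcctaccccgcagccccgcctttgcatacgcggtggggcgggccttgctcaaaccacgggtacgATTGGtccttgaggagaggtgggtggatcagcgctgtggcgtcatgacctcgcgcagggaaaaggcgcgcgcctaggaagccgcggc
Mcm3: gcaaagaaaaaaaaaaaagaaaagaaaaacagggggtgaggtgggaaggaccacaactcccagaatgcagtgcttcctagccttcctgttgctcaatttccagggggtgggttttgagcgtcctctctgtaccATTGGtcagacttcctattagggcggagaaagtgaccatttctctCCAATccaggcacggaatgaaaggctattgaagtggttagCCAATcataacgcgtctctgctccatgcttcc

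The E2F letters were searched on both strands in 4 forms, with TTCCCGC as the first form, TTGGCGC as the second form, TTCGCGC as the third form and TTGCCGC as the last form; a match to TTGGCGC on the other strand can overlap CCAAT. RefSeq windows matched 34 of the 41 genes, with 1 window a gene at the most upstream start site; Mcm4, Gins1, Gins2, Prim2, Pole, Rfc2 and Tipin had none. The letters were found in 13 of the 34 replication windows (38.2%), against 15.3% of 8396 windows of genes tested here and 8.03% of all 27025 windows of the table. CCAAT, on either strand, was found in 58.8% of the replication windows and in 37.3% of the windows of tested genes. Median GC content was 61.2% in the replication windows and 60.0% in those of tested genes. TTTGAA, the core of an element of many mitotic promoters, was found in 3 replication windows (8.82%), against 10.3% of tested genes. In Cdc6 the match starts 138 bases before the start site and in Rrm2 235 bases before it. The Pcna and Mcm3 stretches hold CCAAT and none of the E2F letters. Of the other genes called for their spread, Rpa1, Mcm2 and Mcm10 had none of the E2F letters either, and Mcm4 had no window.

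Nearly all of the machinery was present in nearly every cell. With each cell thinned to 4408953 reads and at least 5 reads taken as detection, 24 of the 41 genes were detected in all 48 cells. At least 36 of the 41 were found in any cell, and all 41 were found in 18 cells (4 Gata6-high and 14 Gata6-low). Genes under 43 cells were Gins3 (33 cells), Cdc6 (40), Pold1 (41), Pole2 (42) and Chaf1a (42). Together the set took a median of 0.766% of reads in Gata6-high cells (lowest 0.336%, highest 1.01%). In Gata6-low cells the median was 0.862% (lowest 0.526%, highest 1.23%), so the ranges overlapped.

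Levels were ordered by median CPM per kilobase of exon over the 48 cells. Rrm2, the regulatory subunit of ribonucleotide reductase that makes deoxynucleotides, was highest at 352 CPM per kilobase. Tipin, a fork protection factor that works with Timeless, followed at 258, Pcna at 159, the origin recognition subunit Orc6 at 157 and the clamp loader subunit Rfc4 at 144 CPM per kilobase. At the low end stood Gins3 at 1.88, Chaf1a, the large subunit of chromatin assembly factor 1, at 3.81, and the catalytic polymerase subunits Pold1 at 7.42 and Pole at 8.20 CPM per kilobase. The accessory subunits Pold2 (70.0) and Pole2 (20.2) had higher medians per kilobase than the catalytic subunits of their own polymerases. Without division by exon length, Pold2 was still above Pold1, at medians of 115 and 25.6 CPM. For the other polymerase the order turned, with Pole at 60.8 and Pole2 at 34.5 CPM. Their exon lengths were 7423 and 1706 bases, so that order rests on the division. Single cells spread far around these medians, as the values by role below show.

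**Figure D1:**
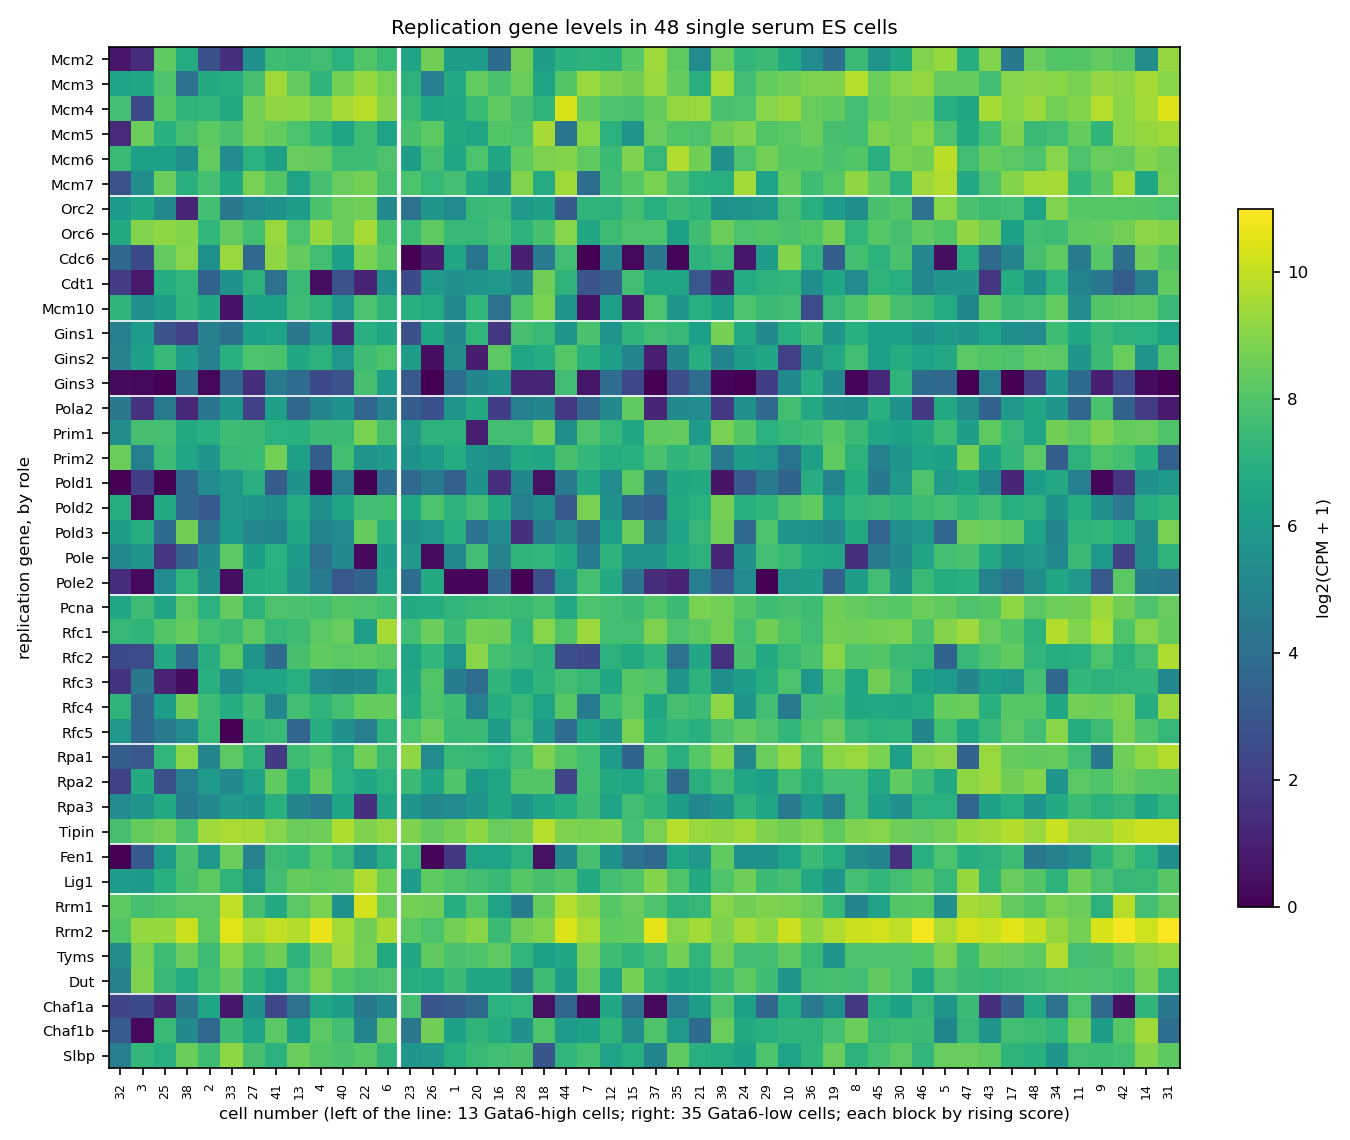
Level of each of the 41 genes (rows, by role) in each of the 48 cells (columns), as log2(CPM + 1); the 13 Gata6-high cells stand left of the white line and the 35 Gata6-low cells right of it, each block ordered by rising mean standardised level over 48 cells. Rrm2 and Tipin are bright in every cell, Gins3 and Chaf1a are dark in many, and Cdc6 runs from 0 in some cells to 629 CPM in another.

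Spread between cells was set against genes of like mean with the modelGeneVar fit of scran, one-sided, with Benjamini-Hochberg adjustment over all genes tested and a threshold of 0.05. The p compares a gene's variance with the scatter of other genes around the trend; it does not say how other cells would vary. Over 48 cells 4 of 41 replication genes were called more variable than the trend (9.76%), against 2.03% of all 11746 genes tested. Over the 35 Gata6-low cells 3 of 41 were called (7.32%), against 1.75% of 11454 genes. Rpa1 was called in both fits. Median variance over trend was 1.14 for the set and 1.00 for all genes over 48 cells, and 1.18 and 1.01 over Gata6-low cells. Sequencing noise was small beside this spread: the difference between lanes accounted for 0.0460% to 0.619% of a gene's variance. Lanes of the same cell do not measure noise from capture and amplification, so its part in the spread is not known.

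Rpa1, the large subunit of the protein that coats single-stranded DNA, had a median of 154 CPM in Gata6-high cells (2.60 to 535) and 272 CPM in Gata6-low cells (9.97 to 861). It was under 10 CPM in 3 Gata6-high cells and 1 Gata6-low cell. Its log2 variance was 3.69 over 48 cells where the trend gave 1.31 (scran, adjusted p = 0.000305), and 2.71 over Gata6-low cells where the trend gave 0.912 (scran, adjusted p = 1.35e-05). Of its partners, Rpa3, the smallest subunit, lay below the trend over 48 cells (variance 1.36, trend 2.81), and Rpa2 did not pass over 48 cells (adjusted p = 0.906 by scran).

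Cdc6, the loader of the helicase ring, had the widest spread of the set. Its median was 284 CPM in Gata6-high cells (4.56 to 629) and 33.2 CPM in Gata6-low cells (0 to 491). In Gata6-low cells 9 of 35 were under 10 CPM and 15 were at 100 CPM or more; in Gata6-high cells these were 1 and 8 of 13. The ranges overlapped. Variance was 8.48 over 48 cells where the trend gave 3.59 (scran, adjusted p = 0.0207). Over Gata6-low cells alone it was 8.68 with a trend of 4.14, and the gene missed the threshold there (scran, adjusted p = 0.0888).

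Mcm2 and Mcm4, subunits of the helicase ring, were called over 48 cells. In the Gata6-low cells neither passed (adjusted p = 0.456 and 0.505 by scran). Mcm2 had a median of 131 CPM in Gata6-high cells (0.610 to 322) and 155 CPM in Gata6-low cells (13.7 to 675). It was under 10 CPM in 4 of 13 Gata6-high cells and in no Gata6-low cell. Its variance was 4.30 against a trend of 1.92 (scran, adjusted p = 0.0497), and the call was lost when any of 20 single cells was left out (adjusted p up to 0.211, without cell 32). Mcm4 had a median of 413 CPM in Gata6-high cells (4.56 to 904) and 340 CPM in Gata6-low cells (86.0 to 1385). Its variance was 1.73 against a trend of 0.719 (scran, adjusted p = 0.0155). Cell 3, where Mcm4 was at 4.56 CPM, decided this call: without it the adjusted p was 0.913 by scran.

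Rrm2 and Mcm10 were called in the Gata6-low cells, and over 48 cells neither passed (adjusted p = 0.394 and 0.687 by scran). Rrm2 had a median of 763 CPM in Gata6-high cells (261 to 1592) and 782 CPM in Gata6-low cells (182 to 1877), so every cell held it. Over Gata6-low cells its variance of 0.781 was small but stood above a trend of 0.341 (scran, adjusted p = 0.0210). Without cell 16, 26, 31 or 42 the call was lost (adjusted p up to 0.150). Mcm10, a factor that helps fire licensed origins, had a median of 95.1 CPM in Gata6-high cells (0.463 to 236) and 168 CPM in Gata6-low cells (0.456 to 439). Its variance over Gata6-low cells was 4.01 against a trend of 1.81 (scran, adjusted p = 0.0407), a call lost when any of 12 cells was left out (adjusted p up to 0.330, without cell 7).

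**Figure D2:**
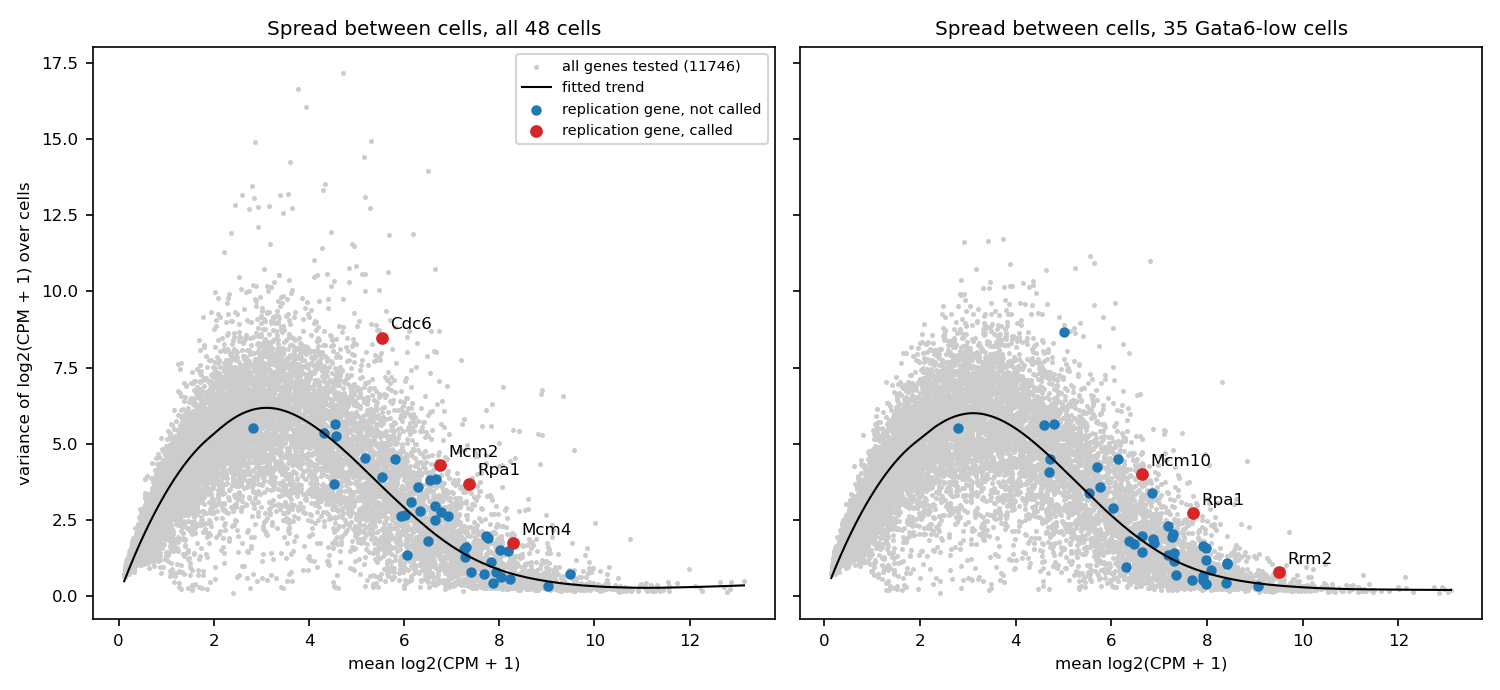
Variance of log2(CPM + 1) over cells against mean log2(CPM + 1) for all genes tested (grey), with the fitted trend (black line) and the 41 replication genes (blue, red where called), over 48 cells at left and 35 Gata6-low cells at right. The 4 called genes at left are Cdc6, Mcm2, Rpa1 and Mcm4 and the 3 at right are Mcm10, Rpa1 and Rrm2. Of the 41 replication genes, 27 lie above the line at left and 26 at right.

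Over 48 cells 27 of the 41 genes (65.9%) had a variance above the trend, against 50.6% of all genes tested. Several core genes had a variance below the trend. Pcna, the sliding clamp that tethers polymerases, had a median of 211 CPM in Gata6-high cells (85.9 to 324) and 261 CPM in Gata6-low cells (98.2 to 644). Its variance of 0.427 over 48 cells lay below the trend of 0.938, at a ratio of 0.455, the lowest of the 41. Rpa3 (ratio 0.484), Dut, which removes dUTP (0.624), Lig1, the ligase of Okazaki fragments (0.679), and Tipin (0.713) came next. Tipin had a median of 466 CPM in Gata6-high cells (212 to 797) and 483 CPM in Gata6-low cells (206 to 1118). No test of lower variance was made.

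Co-variation was measured over the 35 Gata6-low cells as Spearman correlations of log2(CPM + 1), given as a description without a test. All values share the same 35 cells, their libraries and their scaling factors. Over the 820 pairs of replication genes the mean correlation was 0.0776 and the median 0.0790, where the mean over all pairs of 11454 tested genes was 0.00126. Pairs above 0 made up 66.3% of replication pairs. Pairs above 0.3 made up 11.3% of replication pairs and 4.67% of all pairs. These correlations were weak. For comparison, 54 mitosis genes had a mean pairwise correlation of 0.121, and 46 other replication genes had 0.0339.

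By role, the mean correlation within the Mcm2 to Mcm7 ring was 0.194, and 93.3% of its 15 pairs were above 0. It was 0.161 among Orc2, Orc6, Cdc6, Cdt1 and Mcm10, with all 10 pairs above 0. Single-strand binding and Tipin had 0.146 and nucleotide supply (Rrm1, Rrm2, Tyms, Dut) had 0.122. The clamp and its loader had 0.0523 and the polymerases with primase 0.00789. GINS, which holds the helicase together as a complex of fixed make-up, had -0.146 over only 3 pairs. These were Gins1 with Gins2 (-0.27), Gins1 with Gins3 (-0.23) and Gins2 with Gins3 (0.062). Gins3 was low, with a median of 5.03 CPM in Gata6-low cells and 20 of the 35 under 10 CPM. With genes detected per cell, Gins1 correlated at -0.495 and Gins3 at 0.428, and the part of this in the GINS mean was not tested. The other GINS subunit, Gins4, stood in the list of other replication genes and is not in the GINS mean. Gins4 had a correlation of 0.36 with the replication score described below. Fen1 and Lig1, which process and join the same Okazaki ends, stood at -0.32. The highest means between roles were 0.208 between the Mcm ring and single-strand binding, 0.207 between single-strand binding and nucleotide supply, and 0.202 between the Mcm ring and nucleotide supply.

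Pairs above 0.5 made up 0.732% of replication pairs (6 pairs) and 0.218% of all pairs. All 6 joined different roles, as did 89.4% of the 820 pairs. Pold3, an accessory subunit of polymerase delta, and Rfc4 had the highest value at 0.62. Gins1 and Prim1, the catalytic primase subunit, had 0.58. The other 4 pairs linked Mcm3, Mcm4, Pcna and Rrm2: Mcm3 with Pcna (0.56), Mcm4 with Rrm2 (0.56), Pcna with Rrm2 (0.52) and Mcm3 with Rrm2 (0.51). Next came Orc2 with Rfc1 (0.50), Mcm4 with Cdc6 (0.47), Orc6 with Rfc4 (0.47) and Mcm4 with Mcm6 (0.45). These pairs and the lowest ones below were picked as the ends of 820 values over the same cells, where chance can give extremes. Leaving out 1 cell keeps nearly all the cells used for picking and cannot decide this. With any single cell left out these 10 values ranged from 0.406 to 0.704. With other scalings or thinned cells they ranged from 0.396 to 0.620, and by library size 4 of the 6 pairs stayed above 0.5 (Gins1 with Prim1 had 0.472 and Mcm3 with Rrm2 0.396). At the other end, Cdt1 and the flap nuclease Fen1 ran against each other at -0.58 (-0.63 to -0.54 with any 1 cell left out). Gins3 and Lig1 had -0.50, but -0.32 by library size and -0.35 on thinned cells. Rfc3 and Tipin had -0.42, Prim2 and Pold2 -0.39, and Pole and the chromatin assembly subunit Chaf1b -0.37.

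**Figure D3:**
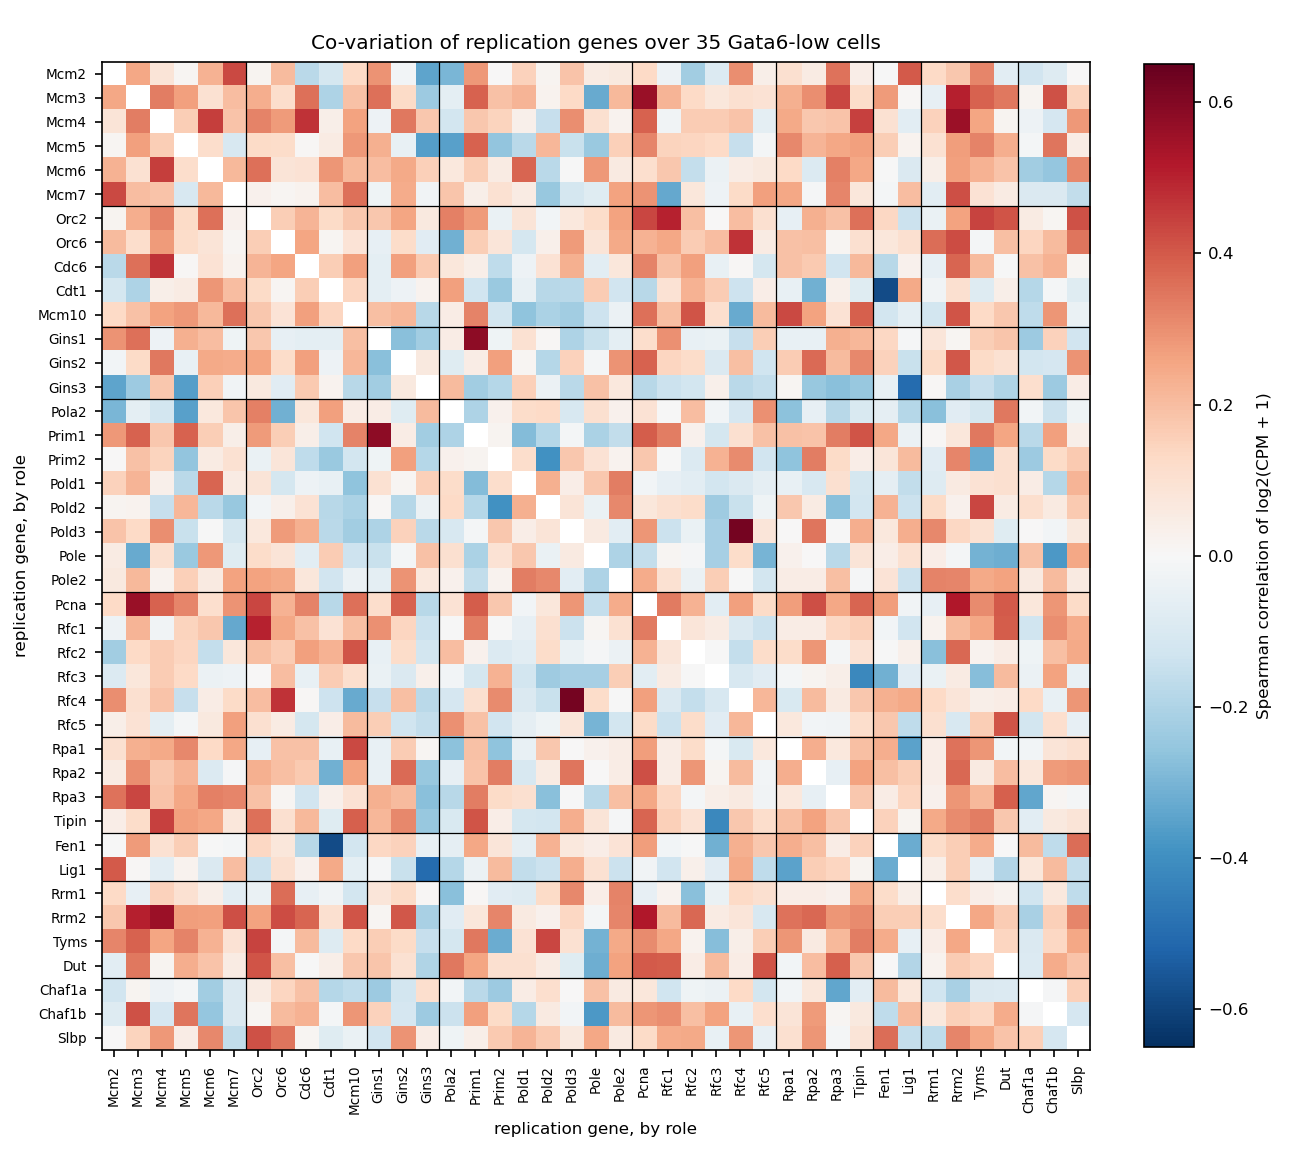
Spearman correlation of log2(CPM + 1) between each pair of the 41 genes over 35 Gata6-low cells; genes run by role along both axes, black lines divide the roles, and the diagonal is left blank. The columns of Pcna and Rrm2 are mostly red, the Gins3 column is mostly blue, and the darkest blue cell is Cdt1 with Fen1 at -0.58.

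Pcna had the highest mean correlation with the other 40 genes (0.212), followed by Rrm2 (0.210), Mcm3 (0.179), Orc2 (0.176) and Mcm4 (0.165). Pcna was also the gene of the set with the lowest variance over trend over 48 cells. In the Gata6-low cells, where the correlations were taken, Rpa3 had the lowest ratio (0.422) and Pcna had 0.533. The mean correlation was above 0 for 34 genes and at or below 0 for 7: Lig1, Pola2, Cdt1, Rfc3, Pole, Chaf1a and Gins3 (-0.087). Cdc6 had a mean of 0.104 in spite of its wide range. Genes with E2F letters in their promoter window had a median of 0.0888 (n = 13) and those without had 0.0897 (n = 21). Genes with CCAAT had 0.0945 (n = 20) and those without had 0.0655 (n = 14).

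A replication score was taken as the mean standardised log2 level of the 41 genes over Gata6-low cells. It ran from -0.64 in cell 23 to 0.49 in cell 31, and cell 31 held the highest level over all 48 cells of 7 of the 41 genes. Its correlation was -0.128 with genes detected per cell and 0.0263 with reads per cell. The score of 46 other replication genes followed it at 0.576, that of 28 G1-S regulators at 0.390 and that of 54 mitosis genes at 0.0437. The mitosis value changed sign with other scalings, to -0.102 by library size and -0.127 with scran factors. With the 12 naive pluripotency markers the correlation was 0.0529.

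Single genes of these lists were set against the score. Of 46 other replication genes 12 (26.1%) had a correlation above 0.3, of 28 G1-S regulators 4 (14.3%), of 54 mitosis genes 3 (5.56%), and of 11413 tested genes outside the set 5.87%. The 4 regulators, named after their values were seen, were cyclin E1 (Ccne1, 0.54), E2f1 (0.51), E2f7 (0.37) and Cdc25a (0.35). Cyclin E1 drives entry into S phase and E2f1 is an activator of replication genes. Over the 28 regulators values ran from -0.21 to 0.54, with a median of 0.068. Of the other E2F genes, also named after their values were seen, E2f2 (-0.15) and E2f3 (-0.12) were below 0. E2f4 (0.094), E2f5 (0.24), E2f6 (0.0056) and E2f8 (0.12) were above 0 and under 0.3. Among the other replication genes, also named after the fact, Mcmbp (0.47), Samhd1 (0.47), the histone chaperone Nasp (0.46) and geminin (Gmnn, 0.45), an inhibitor of licensing, were the highest. By the spread test Msh6, a mismatch repair gene, was the only 1 of the 46 called (variance 2.84 over 48 cells, trend 0.805, scran adjusted p = 3.65e-08; it passed in Gata6-low cells too, adjusted p = 0.000383). That call made up 2.17% of the 46 in each fit, against 2.03% and 1.75% of all genes tested. None of the 28 regulators was called by scran in either fit, with 3 at an unadjusted p under 0.05 in each. Among all genes tested, 615 of 11746 over 48 cells and 655 of 11454 over Gata6-low cells had such a p.

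Of 54 mitosis genes, 6 were called over 48 cells by scran (11.1%) and 11 over Gata6-low cells (20.4%), against 4 and 3 of the 41 replication genes. Among all genes tested 2.03% and 1.75% were called. The difference between these shares was not tested. Cdk1, Ccnf, Plk1, Kif20a, Top2a and Ckap2 were called in both fits, and Mad2l1, Cenpe, Kif22, Prc1 and Mki67 in Gata6-low cells. Cdk1, the kinase that drives mitosis, had a variance of 2.84 over Gata6-low cells with a trend of 0.722 (scran, adjusted p = 2.35e-12).

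Over all tested genes outside the set, the 10 most like the score were Dbr1 (0.64), Whsc2 (0.63), Srsf3 (0.59), 2610029G23Rik (0.58), Immp1l (0.57), Tmem41b (0.56), Tceb1 (0.56), Sumo3 (0.56), Cnbp (0.56) and Phf5a (0.56). None of them belongs to the other lists. The 5 least like it were R3hcc1 (-0.60), Xlr3a (-0.58), Acap2 (-0.57), 2310039L15Rik (-0.56) and Fbxl17 (-0.55). These are ranks among 11413 genes over 35 cells, so the ends of the range hold values that chance can raise.

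**Figure D4:**
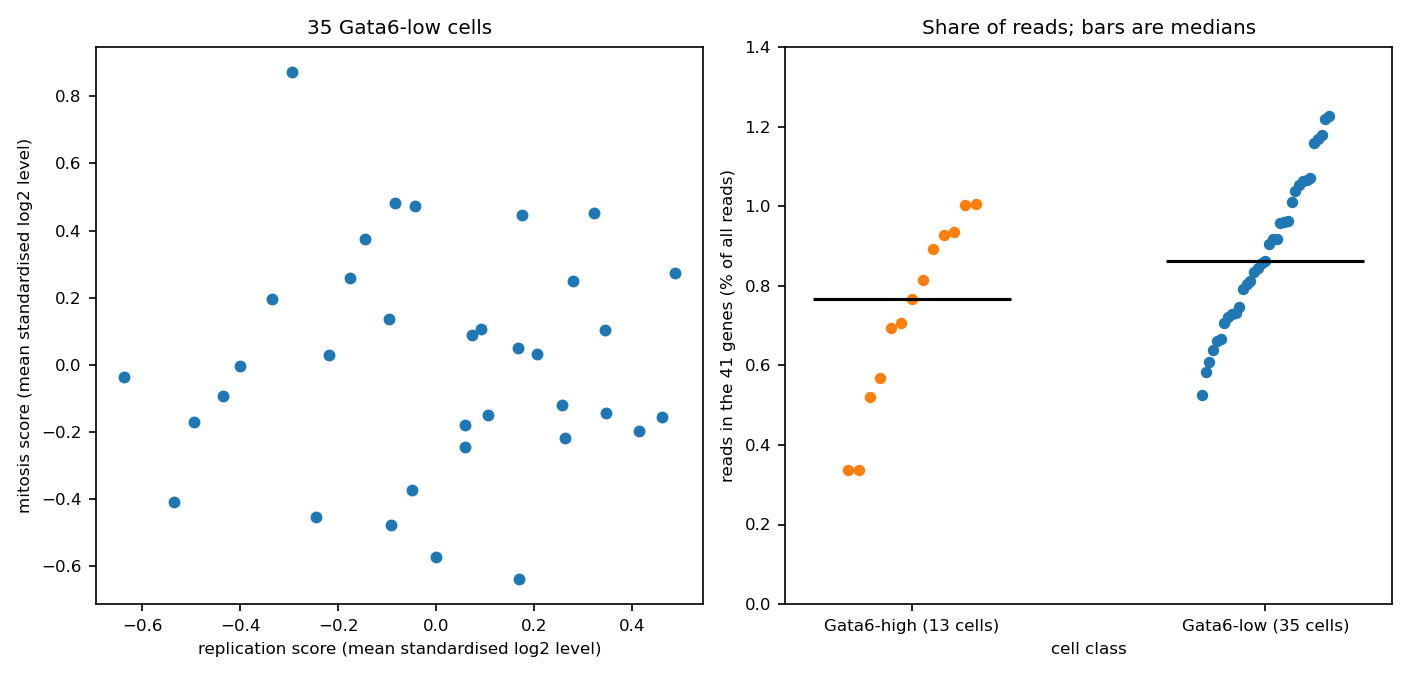
Left, mitosis score against replication score (mean standardised log2 levels) for each of the 35 Gata6-low cells, which show no clear trend (Spearman correlation 0.0437). Right, share of all reads that fell on the 41 genes, in percent, for each cell of the 13 Gata6-high and 35 Gata6-low cells, with bars at the medians of 0.766% and 0.862%.

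Gata6-high and Gata6-low cells were set side by side as cells of the single labelled group, without a test. In mean log2 level, 30 of the 41 genes were lower and 11 (26.8%) higher in Gata6-high cells, against 43.6% higher among all genes tested. The median difference was -0.57 for the set and -0.15 for all 11746 genes tested. Lower by at least 1 were 9 of the 41 genes (22.0%), against 16.5% of all genes, and higher by at least 1 was 1 gene, Cdc6 (2.44%), against 15.9%. The share of lower genes was near the background. The genes that were lower by most were the clamp loader subunits Rfc5 (-1.98) and Rfc3 (-1.87), followed by Mcm2 (-1.63).

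Rfc5 had a median of 46.9 CPM in Gata6-high cells (0 to 174) and 174 CPM in Gata6-low cells (14.1 to 530). Rfc3 had a median of 40.8 CPM in Gata6-high cells (0.307 to 124) and 115 CPM in Gata6-low cells (11.9 to 389). For both genes the ranges overlapped, and the highest Gata6-high cell lay just above the Gata6-low median. Cdc6 ran the other way, at a mean difference of 1.94. Orc6 was higher by 0.50, with a median of 357 CPM in Gata6-high cells (104 to 742) and 236 CPM in Gata6-low cells (74.7 to 576).

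By role, all 6 Mcm ring genes, all 6 clamp and loader genes and all 4 genes of single-strand binding with Tipin had a lower mean in Gata6-high cells, under each of the 4 scalings tried. The nucleotide supply genes differed by -0.04 to 0.20. Reads on the 54 mitosis genes had a median share of 0.808% in Gata6-high cells and 1.38% in Gata6-low cells, and their part in these differences was not tested. A pair of Gata6-high cells weighed on these values. With the score standardised over all 48 cells in place of the Gata6-low cells, cells 3 and 32 had the lowest values (-1.03 and -1.38). They had 0.336% and 0.338% of their reads on the set and held the lowest level of 4 and 7 of the 41 genes. Cell 22, also Gata6-high, held the lowest level of 4 genes too, but the highest of 4 others, at a score of 0.107. Cell 3 had 8150 genes detected and cell 32 had 9508, both inside the range of the other cells, from 8039 to 10291. Without cells 3 and 32 the median difference was -0.18 for the set and -0.12 for all genes. Then 17 of the 41 genes were higher in Gata6-high cells, among them 1 Mcm ring gene and 2 clamp and loader genes. Lower by at least 1 were 4 of the 41. No share over all genes was taken without this pair of cells, so these counts have no background beside them. Rfc5 (-1.88) and Rfc3 (-1.54) stayed lower and Cdc6 was higher by 2.65.

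**Figure D5:**
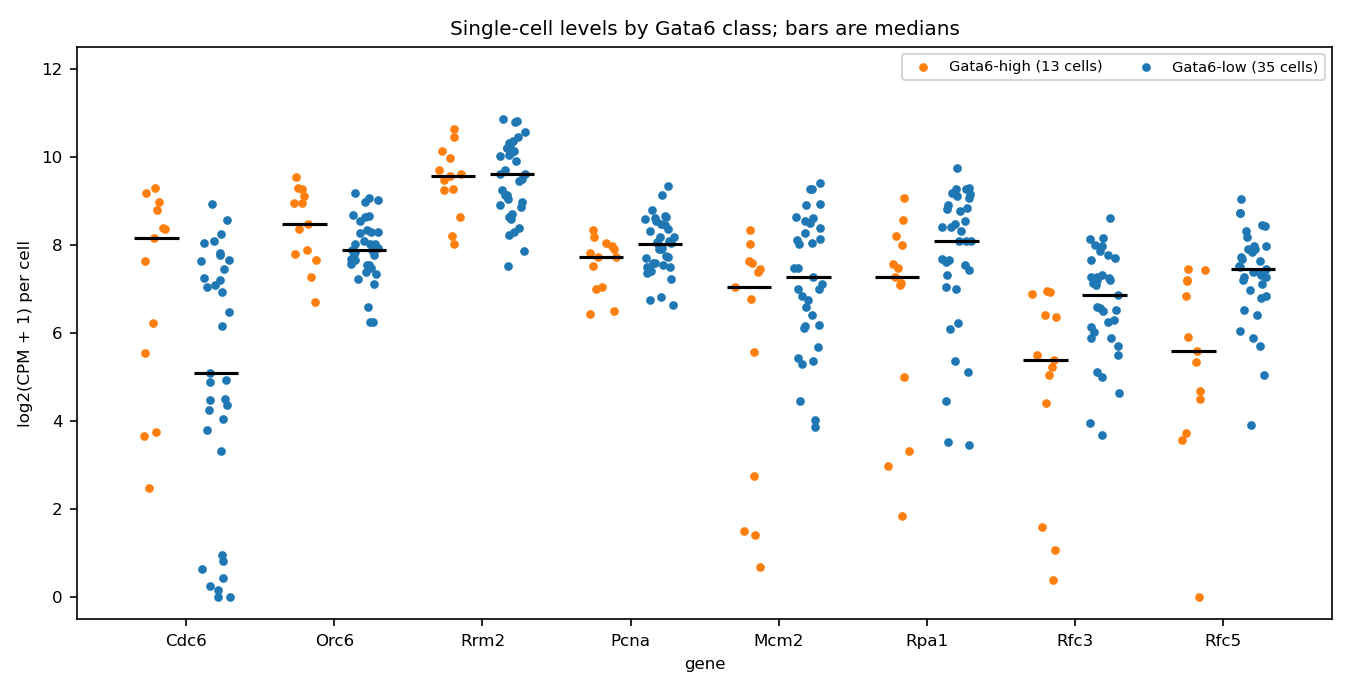
Level per cell, as log2(CPM + 1), of 8 replication genes in 13 Gata6-high cells (orange, left of each pair) and 35 Gata6-low cells (blue); bars are medians. Cdc6 sits higher in Gata6-high cells, Rfc3 and Rfc5 sit lower, Rrm2 and Pcna overlap over most of their range, and a few Gata6-high cells drop far below the rest in Mcm2.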

How the data were processed

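The authors deposited whole-number read counts per gene for 96 samples, 48 cells on 2 lanes each, not normalized. Tools listed in the submitters' processing notes, without their order or use, are featureCounts, Subread 1.4.5-p1 and STAR 2.3.1z12, with build mm9; how reads matching several genes were treated is not given in the sources used here. Cells were captured on a microfluidic chip and amplified with the SMARTer Ultra Low kit, per the labels' protocols. This kit does not mark strand, so antisense reads cannot be told apart.

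Lanes were summed. Counts were scaled with edgeR 4.0.16 (TMMwsp) to CPM and taken as log2(CPM + 1). Variance was fitted with scran 1.30.0 in R 4.3.3 over genes that averaged 10 or more reads, and the procedure was tested on simulated data. Exon lengths came from GENCODE M21. Gata6 classes follow the 20 CPM rule. Non-members named are the 10 genes most and 5 least like the score and list genes that passed the spread test; others are said to be named after their values were seen. The 41 genes and all lists were chosen with earlier results of these data known. Alternatives were other scalings (DESeq2 1.42.0 poscounts among them), filters, pseudocount, depth, lane and left-out cells. Libraries carry no molecular identifiers, so reads are not separate molecules. The adjusted p-values are scran's, by Benjamini-Hochberg over all genes tested.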

Additional observations from a re-analysis of the deposited data

How the results depend on the processing

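The number of replication genes called over 48 cells (4 by scran) was 2 with scran factors, without a count filter and on thinned cells. It was also 2 without cells 3 and 32, a choice made after seeing the data. In that order, the counts over all genes were 197 of 11746, 191 of 16607, 210 of 11008 and 230 of 11717. The main fit had 239 of 11746. The number of replication genes called was 0 with a pseudocount of 10 CPM. There scran gave 5 of them at an unadjusted p under 0.05, against 759 of all 11746 genes. The number over Gata6-low cells (3) was 1 without a count filter or with a pseudocount of 10 CPM, and 5 when genes had to average 50 reads. Over all genes, 174 of 16131 were called there without a count filter and 240 of 8733 at 50 reads. With the pseudocount of 10 CPM the count over all genes fell to 159 over 48 cells (239 in the main fit). Over Gata6-low cells it fell to 97 (200 in the main fit). With single cells left out, the number of replication genes called ranged from 3 to 4 over 48 cells and from 1 (without cell 42) to 5 (without cell 37) over Gata6-low cells. Over all genes the count ranged from 224 to 253 over 48 cells. Over Gata6-low cells it was 179 without cell 42 and 213 without cell 37. Rpa1 kept its call over Gata6-low cells in all 8 alternatives (scran adjusted p up to 0.00849). Over 48 cells it missed the threshold with a pseudocount of 10 CPM (0.0538). Of the 8 alternatives each, calls were lost in 6 for Mcm2 (adjusted p 0.0262 to 0.639), 4 for Cdc6 (0.00931 to 0.185), 1 for Mcm4 (0.00270 to 0.485), 6 for Mcm10 (0.0211 to 0.631) and 2 for Rrm2 (0.00223 to 0.199); the cause was not tested.

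The mean pairwise correlation (0.0776) was 0.107 over all 48 cells, and at its lowest 0.0620 with poscounts factors; with single cells left out it ranged from 0.0664 to 0.0819. All 41 genes were tested, so the alternative with every member gave nothing new. The replication and mitosis scores correlated at -0.127 with scran factors, and from -0.016 to 0.0930 with single cells left out. The median difference between classes ran from -0.62 to -0.49 over 4 alternatives of scaling and pseudocount. Without cells 3 and 32, a choice made after seeing the data, it was -0.18, against -0.12 for all genes. No paired analysis was possible because there is only 1 group. Depth limits the lowest genes most: Gins3 reached 5 reads in 33 of 48 thinned cells.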
